A study of Homo sapiens with 12 samples.

Results

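The regions described here are the wide AGO2-bound regions of an eCLIP study: those of 250 bases or more. They were chosen by width alone, the end minus the start of each region in the deposited lists. Of 1190 regions in the WT list, 104 were wide (8.74%, exact 95% interval 7.20 to 10.5), and of 2921 in the 5xA list, 245 were (8.39%, 7.41 to 9.45). Together they make 349 of 4111 regions. Because width chose them, widths and their differences are given as description, without a test. eCLIP crosslinks protein to RNA with ultraviolet light, immunoprecipitates the protein and sequences the bound RNA fragments. HCT116, a line established from a human colorectal carcinoma, was used throughout. The 12 samples form 6 groups of 2, namely an input and an immunoprecipitate for each of AGO2_KO, FH-AGO2_WT and FH-AGO2_5xA, with an anti-FLAG antibody used to pull down the tagged protein. FH-AGO2_WT cells carry the tagged wild-type protein, FH-AGO2_5xA cells the tagged 5xA mutant, and AGO2_KO cells, the control, lack AGO2. The labels do not state the promoter of the tagged protein, whether each line is 1 clone or whether the tagged lines lack endogenous AGO2. The WT and 5xA lists each pool the 2 immunoprecipitates of a genotype, so no replicate error exists for any value below, and the sequencing depth behind a region is unknown. The p-values compare regions within these lists and not genotypes across cultures, and they treat regions of 1 gene as independent.

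AGO2 is the protein that holds a microRNA and uses it to find target transcripts. The seed of the microRNA pairs with short sites that lie mostly in the 3' untranslated region, close to the end of the gene, and AGO2 then brings in TNRC6 proteins, which recruit the deadenylases that shorten the poly(A) tail. Target binding is followed by phosphorylation of a cluster of residues near the C terminus of AGO2, and a phosphatase complex with ANKRD52 removes the phosphates. 5xA is known as the form with that cluster changed to alanine. A region of bound RNA as long as those described here is larger than a single microRNA site with its flanks and can hold several of them.

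The wide region whose sequence content is best known lies over a cluster of microRNA genes within MCM7, a subunit of the replicative helicase. In the 5xA list it was a single region of 291 bases on the minus strand, chr7:100093773-100094063 (hg38), which covered MIR93 and MIR106B. The WT list had, in the same stretch, 2 separate regions of 65 bases each, chr7:100093773-100093837 at MIR93 and chr7:100093999-100094063 at MIR106B, with a gap of 161 bases. The outer edges were the same in both lists, with differences of 0 bases upstream and 0 bases downstream. The 2 regions covered 44.7% of the wide one. Mature sequences from RefSeq (GRCh38.p14) are shown because the region edges meet them, with the seed, bases 2 to 8, in capitals.
hsa-miR-93-5p: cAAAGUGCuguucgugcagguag
hsa-miR-93-3p: aCUGCUGAgcuagcacuucccg
hsa-miR-106b-5p: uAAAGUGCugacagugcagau
hsa-miR-106b-3p: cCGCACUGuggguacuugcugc
The 5p arms share the seed AAAGUGC. The 5' edge of each WT region coincided with the first base of the 5p arm (0 bases apart), and the regions ended 4 bases past the 3' end of miR-93-3p and 3 bases past that of miR-106b-3p. So the narrower WT regions framed each hairpin from the 5p start to just after the 3p end, and the 5xA region ran from the first hairpin through the space between them to the second.

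A further pair of wide 5xA regions covered a microRNA gene inside a protein-coding gene. In GPRC5A, a retinoic acid-induced receptor, a 5xA region of 415 bases, chr12:12915603-12916017, held MIR614, whose mature sequence is printed with its seed in capitals.
hsa-miR-614: gAACGCCUguucuugccaggugg
The WT region at that place was 185 bases wide, chr12:12915829-12916013, and held MIR614 too. In PABPC1, the cytoplasmic poly(A)-binding protein, a 5xA region of 402 bases overlapped MIR7705, and no WT region met it. These 3 were the wide regions at microRNA genes in the 5xA list, and the WT list had 0 of 104. The 3 were 1.22% of the 245 wide 5xA regions, near the 1.12% of narrower 5xA regions (30 of 2676). Among narrower WT regions 21 of 1086 (1.93%) lay at microRNA genes. Reads from the host transcript and from the microRNA precursor cannot be told apart here.

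The wide region at PGK1, a glycolytic kinase used as a housekeeping gene, crossed the annotated gene start in both lists. It was 498 bases in the WT list, chrX:78103826-78104323, of which 422 lay before the gene start. It was 507 bases in the 5xA list, chrX:78103819-78104325, of which 429 did. The 250 bases just upstream of the start, chrX:78103998-78104247 on the plus strand (RefSeq, GRCh38.p14), are shown because both regions cover all of them.
PGK1 upstream: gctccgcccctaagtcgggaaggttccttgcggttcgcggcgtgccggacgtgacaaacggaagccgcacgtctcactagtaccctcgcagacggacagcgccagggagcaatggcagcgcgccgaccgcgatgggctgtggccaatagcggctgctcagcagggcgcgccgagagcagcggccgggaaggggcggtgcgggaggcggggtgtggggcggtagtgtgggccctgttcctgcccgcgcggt
It was 71.2% G or C with 32 CG pairs, against medians of 58.0% and 11.0 pairs over 35116 upstream windows of the same length. PGK1 had no other wide region in either list.

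Chosen as the longest regions, wide regions by construction held a larger share of the bound bases than of the regions. In the WT list they made up 42469 of 172420 region bases (24.6%), and in the 5xA list 107066 of 405399 (26.4%). The median width was 339 bases in the WT list (quartiles 288.75 and 439.25) and 326 bases in the 5xA list (quartiles 277 and 448). At 300 bases or more were 70 of 104 wide WT regions and 147 of 245 wide 5xA regions. Of the WT regions 15 were 500 bases or more and 4 were 1000 or more, and of the 5xA regions 47 and 11 were. Just inside the threshold was 1 WT region, at IGF2 (250 bases), and regions just outside included EP300 (247), MKNK2 (248) and ONECUT3 (249). For 5xA, 7 regions were 250 to 253 bases (among them EP300, CBX6, SPRY4, NIBAN2, PMAIP1, VCL) and 9 were 247 to 249 (KLF6, ACTN4, ERF, EREG, EEIG1, DDX21, GAPDH, ONECUT3, HIPK2). EP300, a histone acetyltransferase, was thus wide by 5xA (250 bases) and not by WT (247 bases) on a difference of 3 bases.

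**Figure D1:**
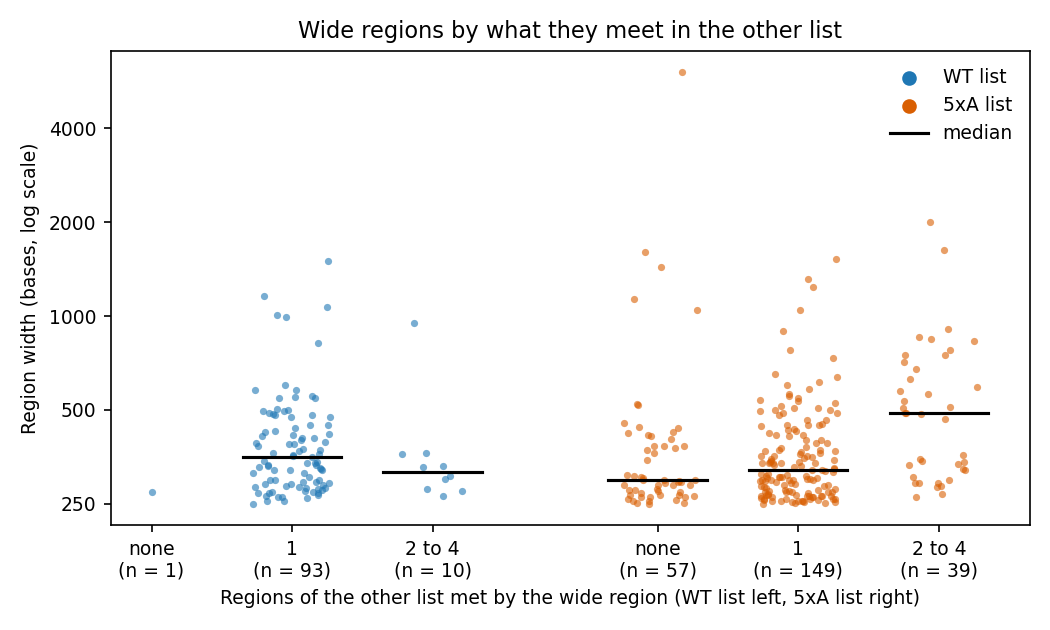
Width in bases (log axis) of every wide region, grouped by how many regions of the other list it meets, with the WT list on the left and the 5xA list on the right; points are regions and black lines medians. In the WT list 1 region met none, 93 met 1 and 10 met 2, and in the 5xA list 57 met none, 149 met 1 and 39 met 2 to 4.

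The widest WT region lay in ZFP36 (1508 bases, chr19:39407755-39409262), which encodes tristetraprolin, a protein that binds AU-rich elements and brings about mRNA decay. The 5xA region there was 1521 bases, and the WT one lay wholly within it. The paralogue ZFP36L1 had a WT region of 1067 bases inside a 5xA region of 1239. ZFP36 is a short gene, and its region took 58.9% of the gene span in the WT list and 59.4% in the 5xA list. EREG, an EGF receptor ligand, ran the other way. Its WT region was 1157 bases, chr4:74387494-74388650, and the 5xA region that met it was 508 bases, chr4:74388156-74388663. ERRFI1, a feedback inhibitor of the EGF receptor, was 602 bases in the WT list and 355 in the 5xA list. Each gene had 1 WT region but more 5xA regions. Over the whole gene the 5xA regions held 1026 bases in EREG (4 regions) and 541 in ERRFI1 (3 regions). The remaining widest WT regions were 3 in HMGA2 (1010, 997 and 952 bases), 822 in the pseudogene AFG3L1P, 578 in IGF2 and 578 in PLEC. IGF2 encodes a growth factor and PLEC the cytolinker plectin. The IGF2 region had a 5xA counterpart of nearly the same width (582 bases), whereas the one in PLEC was 1315 bases wide in the 5xA list.

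HMGA2, a chromatin architectural protein and a known let-7 target, had the most wide regions in the WT list, 5, and 4 in the 5xA list. At its 3' end 4 WT regions of 447, 405, 1010 and 952 bases followed each other with gaps of 1, 2 and 5 bases, from chr12:65963434 to 65966255. The 5xA list cut the same stretch at other places, into regions of 434, 2009 and 312 bases. The 2009-base region, chr12:65963881-65965889, met 3 of the WT regions, and 99.6% of it was covered by them. The bound stretch was thus nearly the same in both lists, and the borders within it were not. A separate wide region lay at the other end of the gene, 997 bases in the WT list (chr12:65824385-65825381) and 1043 in the 5xA list (chr12:65824381-65825423), where the gene RPSAP52 overlaps HMGA2.

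Whether a wide region lay where the other list also had a region was tested with its midpoint, a single base in regions of every width. Of all WT regions 79.2% had their midpoint in a 5xA region. Of the wide ones 98 of 104 did (94.2%, 87.9 to 97.9), against 844 of 1086 narrower ones (77.7%), an odds ratio of 4.68 (2.04 to 13.2, two-sided Fisher's exact test, Benjamini-Hochberg adjusted over 6 tests, p = 4.02e-05). The background among all 5xA regions was 29.7%. Of the wide regions 156 of 245 had their midpoint in a WT region (63.7%, 57.3 to 69.7), against 712 of 2676 narrower ones (26.6%), an odds ratio of 4.83 (3.65 to 6.43, adjusted p = 6.16e-30 by the same exact test). The share also differed with width below the threshold, without a step at 250 bases, and was uneven above it. For 5xA it was 10.8% under 75 bases, 31.7% at 100 to 149, 51.9% at 200 to 249, 61.2% at 250 to 299, 67.6% at 300 to 399, 53.1% at 400 to 499 and 70.2% at 500 or more. For WT it was 65.7% under 75 bases, 80.3% at 100 to 149, 96.3% at 200 to 249 and 88.2% at 250 to 299. It was 100% at 300 to 399 (35 of 35) and at 400 to 499 (20 of 20), and 86.7% at 500 or more (13 of 15, 59.5 to 98.3). Whether the lists were called independently of each other is not stated.

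**Figure D2:**
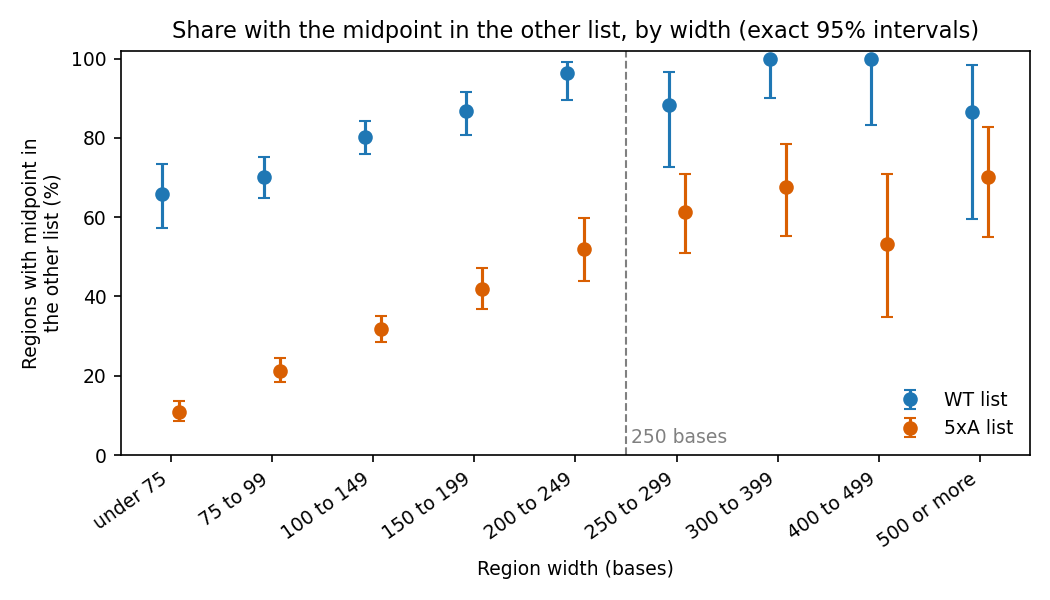
Percent of regions whose midpoint lies in a region of the other list, by region width in bases; points are the WT list (blue) and the 5xA list (orange), bars exact 95% intervals, and the dashed line marks 250 bases. In the 5xA list the share is 10.8% under 75 bases and 61.2% at 250 to 299, falls to 53.1% at 400 to 499 (17 of 32) and is 70.2% at 500 or more.

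The region found at the shared midpoint was usually wide too when the WT region was. At the midpoints of wide WT regions the 5xA region had a median width of 433 bases, and 90 of 98 were wide (91.8%). At the midpoints of narrower WT regions the median was 142 bases, and 138 of 844 were wide (16.4%). In the other direction, WT regions at the midpoints of wide 5xA regions had a median of 271.5 bases, and 85 of 156 were wide (54.5%), against 20 of 712 (2.81%) for narrower 5xA regions. By any overlap, 103 of 104 wide WT regions met a 5xA region. The exception was a 273-base region in CALM3, a calmodulin gene, at chr19:46609521-46609793.

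A wide region of 1 list seldom spanned several regions of the other. In the 5xA list 39 of 245 wide regions (15.9%, 11.6 to 21.1) overlapped at least 2 WT regions on the same strand, where 1.51% of all 5xA regions did. In the WT list 10 of 104 (9.62%, 4.71 to 17.0) overlapped 2 5xA regions, where 2.52% of all WT regions did. Among narrower regions 5 of the 5xA list (0.187%) and 20 of the WT list (1.84%) did. A longer region has more room to meet 2 others, so these shares are not tested. The 39 spanning 5xA regions lay in 35 genes and met 87 WT regions, of which 65 were narrower than 250 bases. In 23 of the 39 all the WT regions met were narrower, in 5 all were wide, and 11 met both kinds. The gaps between the spanned WT regions were short, with a median of 19 bases (range 1 to 296), and 38 of 48 were 50 bases or less. The WT regions together covered a median of 81.6% of the spanning 5xA region (range 44.7 to 99.6), with the MCM7 region the lowest and TRAF4, a signalling adaptor, among the highest (99.6%). When WT regions within 50 bases were joined first, 10 spanning 5xA regions were left of 39, and with 5xA regions joined 1 spanning WT region was left of 10.

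CDKN1A, which encodes the cell cycle inhibitor p21, and MKNK2, a kinase that phosphorylates the cap-binding factor eIF4E, each had a 5xA region over 4 WT regions. In CDKN1A the 5xA region was 778 bases, chr6:36685912-36686689, over WT regions of 96, 190, 289 and 146 bases. The WT regions covered 92.7% of it, and both began at the same base. In MKNK2 it was 486 bases, chr19:2038736-2039221, over WT regions of 139, 97, 114 and 82 bases that covered 88.9%. A different picture was seen in STC2, a secreted glycoprotein hormone. Its 5xA region was 577 bases, chr5:173317147-173317723, and the 3 WT regions of 101, 76 and 112 bases within it covered 50.1%, so about as many of its bases lay outside WT regions as inside. CLDND1, HAS3 and HMGA2 were among the others with 5xA regions over 3 WT regions each, with 92.1%, 65.6% and 99.6% covered. HAS3 makes hyaluronan. CLDN4, a tight-junction protein of epithelia, had an 835-base 5xA region over 2 wide WT regions of 428 and 288 bases with a gap of 2 bases. In FOSL1, a partner of JUN in the AP-1 factor, an 858-base 5xA region covered WT regions of 390 and 99 bases that were 296 bases apart, the longest gap of all.

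**Figure D3:**
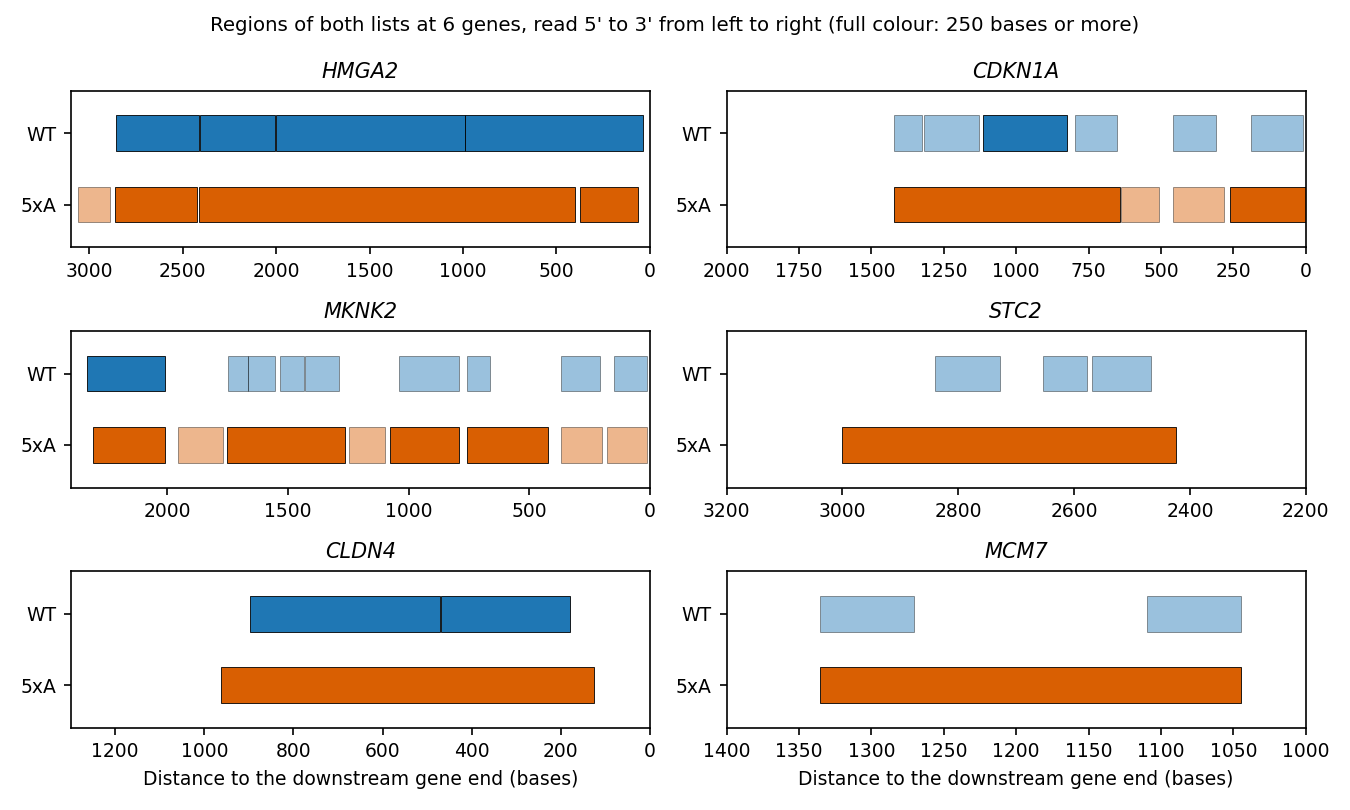
Regions of the WT list (blue) and the 5xA list (orange) at 6 genes, drawn to scale by distance in bases to the downstream gene end and read 5' to 3' from left to right; full colour marks regions of 250 bases or more and pale colour narrower ones. In CDKN1A and MKNK2 1 wide 5xA region lies over 4 WT regions, in HMGA2 both lists tile the same stretch with different borders, and in MCM7 the wide 5xA region begins and ends with the 2 narrow WT regions.

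WT regions spanned several 5xA regions in 10 genes: HMGA2, IER3, SPG7, SLC7A5, ITPRID2, EIF4G1, NACC1, ZC3HAV1L, DDIT4 and RHOB. The 363-base WT region in IER3, an early response gene that affects cell survival, met 5xA regions of 119 and 229 bases with a gap of 15. In ZC3HAV1L a 278-base WT region met 5xA regions of 174 and 113 bases with a gap of 9. Gaps were 4 to 53 bases with a median of 14, and 5xA regions covered a median of 95.2% of the WT region. RHOB, a small GTPase induced early by growth signals, had the largest gap (53 bases) and was the 1 case with both 5xA regions wholly inside. For 5xA, 22 of 39 spanned at least 2 WT regions that lay wholly inside.

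Most wide regions had a single partner. There were 152 one-to-one pairs in which each region met no other, with at least 1 of the pair wide. In 68 both were wide, with 47 of them longer by 5xA, 21 longer by WT and a median difference of 19 bases. Both edges lay within 20 bases of each other in 25 of these 68. In 78 pairs only the 5xA region was wide. The WT partners had a median of 173.5 bases, and the median difference was 133 bases. The direction of that difference is set by the choice of these pairs. In 6 pairs only the WT region was wide. These were NORAD (338 and 139 bases), ONECUT3 (281 and 134), MIER2 (255 and 186), EHD1 (263 and 235), KDM6B (255 and 238) and IGF2 (250 and 235), with the WT width first. Only NORAD and ONECUT3 of these differed by over 100 bases.

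**Figure D4:**
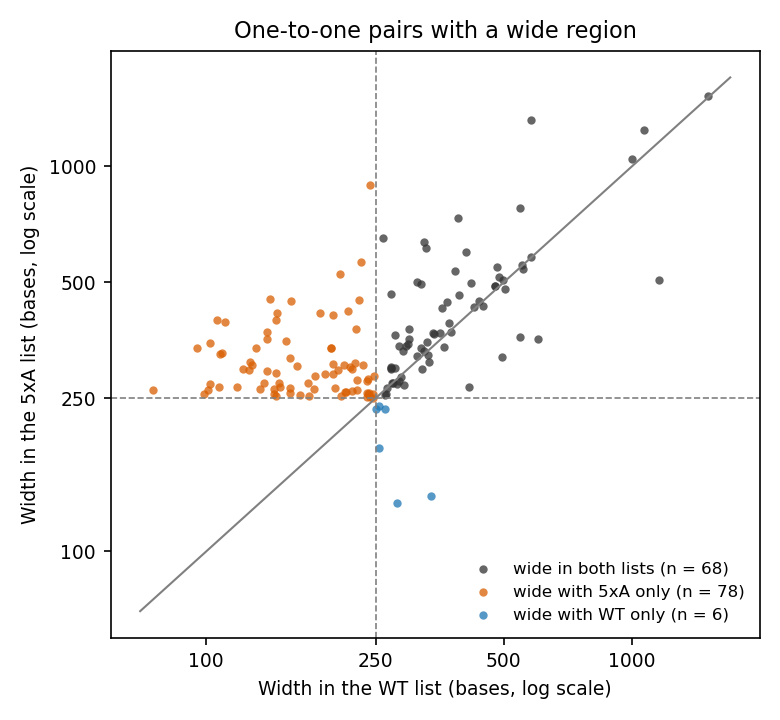
Width in the 5xA list against width in the WT list, in bases on log axes, for 152 one-to-one pairs with at least 1 wide region; the solid line marks equal width and the dashed lines 250 bases. In 78 pairs the region is wide in the 5xA list only and in 6 in the WT list only.

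Among narrower 5xA regions 1920 of 2676 met no WT region, and a longer region has more room to meet one. Wide 5xA regions without any WT overlap numbered 57 of 245, a smaller share. The widest, 6057 bases at chr17:8119763-8125819 on the plus strand, lay over 4 tRNA genes (TRG-GCC2-6, TRL-TAG1-1, TRQ-CTG1-5 and TRR-TCT2-1) and over HES7, a protein-coding gene on the opposite strand. The next in width were in CSTB (1605 bases), over the tRNA genes TRE-CTC1-1 and TRG-TCC2-1 (1440 bases), in ROMO1 (1134 bases) and in SLU7 (1050 bases). CSTB encodes the protease inhibitor cystatin B, ROMO1 a mitochondrial membrane protein and SLU7 a splicing factor. In CSTB and ROMO1, both short genes, the region took 67.3% and 72.0% of the gene span. Then came IER2 (523 bases), SPCS1 (518), COL1A1 (455), ZNF680 (442) and TRIB1 (437). IER2 is an early response gene, COL1A1 a fibrillar collagen chain and TRIB1 a pseudokinase that directs protein degradation. IER2, COL1A1 and TRIB1 had WT regions elsewhere in the gene. The other wide 5xA regions of this kind were shorter than the one in TRIB1.

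By class, 98 of 104 wide WT regions (94.2%) overlapped a protein-coding gene and no small RNA gene, where 87.7% of all WT regions did. The narrower regions had 87.1%, and the difference did not pass the threshold (odds ratio 2.42, adjusted p = 0.0604 by the same exact test). Of the wide 5xA regions 227 of 245 did (92.7%), where 89.9% of all did and 89.7% of the narrower (odds ratio 1.45, adjusted p = 0.15 by the same exact test). With 1 region per gene and width class, a setting added after the data were seen, both passed (odds ratios 3.42 and 1.8, adjusted p = 0.0209 and 0.0353 by the same exact test). That setting kept every region without a gene and so thinned mostly coding regions. Among narrower WT regions, 946 of 1086 became 636 of 764. The rule alone can raise the odds ratio, so nothing is drawn from it. The few non-coding members were led by NORAD, a lncRNA that holds Pumilio proteins. It had 2 wide regions in the WT list (358 and 338 bases) and 3 in the 5xA list (429, 288 and 263 bases). The pseudogene AFG3L1P had 2 in the WT list (822 and 495 bases), both under a 1626-base 5xA region.

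Wide regions were found in 71 of the 728 genes with a WT region (9.75%) and in 177 of the 1583 with a 5xA region (11.2%). The 2 sets shared 66 genes, 93.0% of the WT set and 37.3% of the 5xA set. The other 5 genes of the WT set all had narrower 5xA regions. Of the 111 genes wide in the 5xA list only, 86 had narrower WT regions and 25 had no WT region given to them. Among these 25 was CREB3, whose 256-base region lay on the opposite strand and met a WT region given to GBA2. Several wide regions in a gene were common, in 21 WT genes with 53 of the regions and in 37 5xA genes with 101. CCND1, which encodes cyclin D1, had 4 in each list. The WT widths from 5' to 3' were 547, 343, 393 and 271 bases, and the 5xA widths 361, 367, 464 and 465. MIDN, midnolin, which takes nuclear proteins to the proteasome, had 4 in the WT list (340, 273, 426 and 551 bases) and 5 in the 5xA list (370, 895, 274, 432 and 555 bases). The WT widths thus recurred closely in the 5xA list, and the added 895-base 5xA region lay over a WT region of 242 bases. IGF2 had 4 in the WT list and 3 in the 5xA list. SLC7A5, an amino acid transporter, had 2 in the WT list (330 and 272 bases) and 5 in the 5xA list (591, 300, 352, 422 and 256 bases). BTG2, an antiproliferative protein that recruits deadenylases, had 1 in the WT list (485 bases) and 4 in the 5xA list (414, 291, 753 and 488 bases). MKNK2 had 1 and 5, TRIB1 3 and 4, HAS3 2 and 4, ZFP36L1 2 and 3, and COL1A1 1 and 3, with the WT count first.

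Gene groups were described by how many of their bound members held a wide region, beside the 9.75% of WT genes and 11.2% of 5xA genes that did. Of the early response genes, which growth signals induce within minutes, 7 of 17 bound in the WT list and 11 of 25 bound in the 5xA list did, out of 50 listed. IER3, RHOB, FOSL1, BTG2 and TRIB1 were among those wide in 1 list or both. Among the 13 ZFP36 family members and AU-rich element binders, 3 of 5 bound did in the WT list and 4 of 5 in the 5xA list. These were ZFP36, ZFP36L1 and KHSRP (476 bases by WT, 489 by 5xA), and CELF1 in the 5xA list (274 bases). KHSRP is a splicing and decay factor. Of 32 listed let-7 targets, 3 of 11 bound did in the WT list (HMGA2, CCND1 and HIC2) and 8 of 16 in the 5xA list. HIC2, a transcriptional repressor, had 495 and 333 bases in the WT list and 320 and 311 in the 5xA list. DICER1, the enzyme that makes mature microRNAs, had 2 wide regions in the 5xA list (259 and 254 bases) and none in the WT list.

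Of the p53 targets, 2 of 11 bound had a wide WT region and 5 of 12 a wide 5xA region. They were CDKN1A and BTG2 in both lists, joined in the 5xA list by BBC3 (347 bases), PMAIP1 (252 bases) and GDF15 (346 bases). BBC3 and PMAIP1 encode the cell death proteins PUMA and NOXA, and were the 2 of 6 bound BCL2 family genes with a wide 5xA region, where 0 of 5 had a wide WT region. Of 42 genes listed under the silencing machinery, 3 of 10 bound had one in the WT list and 5 of 14 in the 5xA list. Both counts include ZYX, which encodes zyxin, a focal adhesion protein and not a known silencing factor. TNRC6A, the scaffold that AGO2 binds, had 286 bases by WT and 284 by 5xA. ANKRD52, a subunit of the phosphatase complex that acts on AGO2, had 313 bases by WT and 322 and 283 by 5xA. ZYX had 278 bases by WT and 299 by 5xA, and PABPC1 and DICER1 were wide in the 5xA list only. Chromatin regulators had 4 of 10 and 5 of 13, G1/S cell cycle genes 3 of 8 and 3 of 11, and TGF-beta, BMP and Wnt regulators 2 of 9 and 4 of 9, with the WT list first. Region lists do not give expression, so the cell type was not checked by level. Of the 12 epithelial markers, CLDN4 was the 1 bound in the WT list and 1 of 2 bound in the 5xA list, and it was wide in both. Genes known from fibroblasts had 1 of 1 and 1 of 3, both COL1A1, and none of 6 blood cell markers was bound. Replication-dependent histone genes had 0 of 1 and 0 of 3. Housekeeping genes had 1 of 6 (PGK1) and 2 of 11 (PGK1 and FTL). Transcript levels were not measured here, and the lists were written with earlier results of these data known, so the counts are a description.

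Wide regions lay mostly near the downstream end of the gene, where 3' untranslated regions are. No exon annotation was used here, so the place is given as the distance from the midpoint to the annotated gene end. In protein-coding genes of any length the median distance was 997 bases in the WT list and 1296 in the 5xA list. Within 1 kb lay 49 of 98 and 89 of 231, and within 5 kb 88 (89.8%) and 202 (87.4%). In genes over 10 kb, 79.0% of all WT regions and 77.7% of all 5xA regions lay within 5 kb of the end. This cut leaves out the shortest genes, but gene length was not matched between wide and narrower regions. A 5 kb window is still a large part of a gene just over 10 kb, such as MIDN (10561 bases). Of the wide WT regions 64 of 73 did (87.7%, 77.9 to 94.2), against 600 of 767 narrower ones (78.2%), which did not pass (odds ratio 1.98, 0.953 to 4.62, adjusted p = 0.0838 by the same exact test). Of the wide 5xA regions 142 of 167 did (85.0%, 78.7 to 90.1), against 1512 of 1961 (77.1%), which passed (odds ratio 1.69, 1.08 to 2.73, adjusted p = 0.0393 by the same exact test). That call of the exact test was lost with a 2 kb window (odds ratio 1.21, adjusted p = 0.31), with 1 region per gene and width class (1.66, adjusted p = 0.0774) and with 300 bases as the threshold (1.74, adjusted p = 0.0914). The WT difference passed when regions in several genes were left out (2.97, adjusted p = 0.0195 by the exact test).

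**Figure D5:**
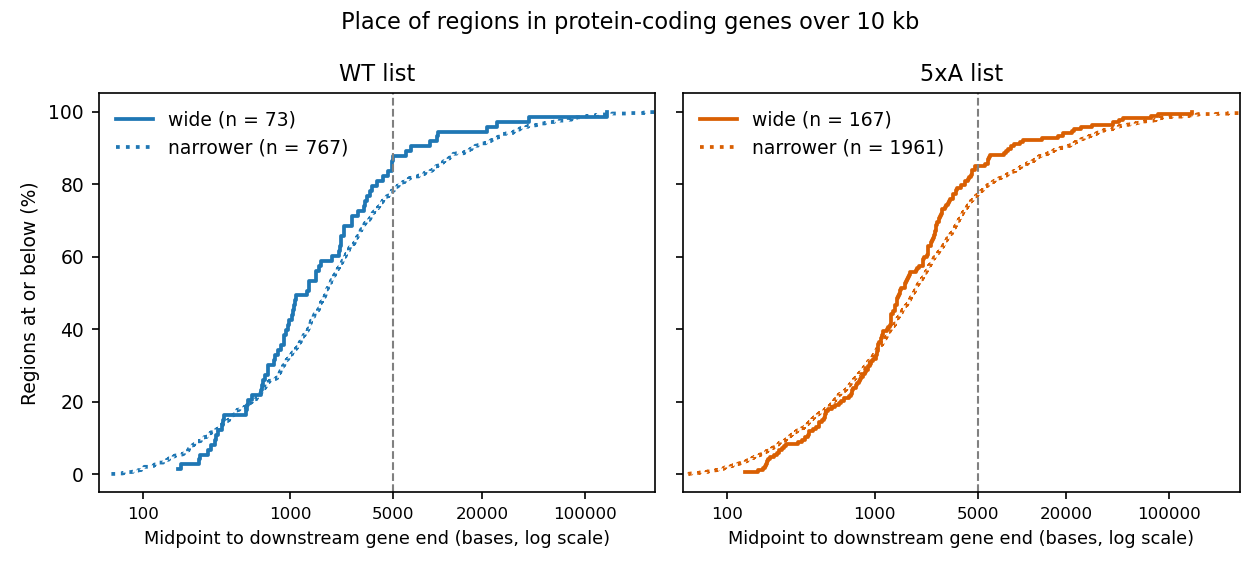
Cumulative percent of regions by distance in bases (log axis) from the midpoint to the downstream gene end, for protein-coding genes over 10 kb; solid lines are wide regions, dotted lines narrower ones, and the dashed line marks 5000 bases. By that line 87.7% of wide WT regions and 85.0% of wide 5xA regions are counted, against 78.2% and 77.1% of the narrower.

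The wide regions in genes over 10 kb had a median distance of 1293 bases in the WT list and 1487 in the 5xA list, against 1739 and 1839 for narrower regions. A few lay at the other end of the gene: 3 WT and 6 5xA regions had their midpoint within 1 kb of the upstream end and over 5 kb from the downstream one, leaving out regions on the strand opposite to the gene (1 WT and 2 5xA). They were in PGK1, HMGA2 and TRIB1 in both lists. In the 5xA list they were also in MKNK2 (383 bases), PABPC1 (378 bases) and EFNB2 (273 bases, an ephrin ligand), none of which met a WT region there. The MKNK2 region began 19 bases after the annotated start. COL1A1 differed from most in that its wide regions lay inside the gene, 6081 bases from the end in the WT list (320 bases wide) and 5584, 6073 and 7572 bases from it in the 5xA list (455, 338 and 384 bases wide). FTL, the ferritin light chain, had a 299-base 5xA region that began at the first base of the gene and met no WT region.

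Wide regions also stood close to further regions of their own list. Another region of the same list lay within 50 bases of 39 wide WT regions (37.5%) and of 139 narrower ones (12.8%), and of 89 wide 5xA regions (36.3%) and 418 narrower ones (15.6%). The 4 WT regions at the 3' end of HMGA2, with gaps of 1, 2 and 5 bases, were of this kind. Where the strand of the gene was known, 74 of 76 wide WT regions and 183 of 189 wide 5xA regions lay on it. Among the exceptions was a pair given to TSC2 by its span (488 bases by WT, 516 by 5xA). On the strand of the region the gene was PKD1, with the midpoint 797 and 804 bases from its downstream end.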

How the data were processed

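Per the submitters' processing notes, cutadapt 1.9.1 and TopHat2 were used and coordinates are on hg38. The labels do not name the peak caller, its threshold or how inputs, knockout libraries and replicates entered it. The authors deposited 1 list of regions per genotype with 6 columns, and the deposited score is 0 in every row, so no score was used. The inputs and knockout samples were not analysed here. Depth is unknown, and exact 95% Clopper-Pearson intervals cover counting of regions only.

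Overlap meant 1 base or more, strands matching, computed in Python 3.11.15 and checked with bedtools 2.31.1. Genes came from RefSeq spans (GRCh38.p14), with strands for 28863 of 59679 genes. Overlapping genes were taken in the order protein-coding, lncRNA, other, and the shortest span won. It was called protein-coding only without a small RNA gene. Shares were tested by Fisher's exact test, two-sided (scipy 1.17.1), Benjamini-Hochberg adjusted over 6 tests. Simulated regions were used to check the overlap, midpoint and joining counts and the direction of 1 planted odds ratio. The p-values and intervals were not checked in this way. Alternatives changed the width threshold, overlap rule, window, strand, contigs, joining and regions per gene. Members, gene lists and tests were chosen with earlier results of these data known. Genes were named from the 10 widest regions, genes with 2 or more wide regions, the regions that span most, the widest without overlap, the gene lists, small RNA genes and regions at the threshold. TRAF4, CALM3, EFNB2, TSC2 and the pairs wide in the WT list only were named after their values were seen. A few named regions are not reported here.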

Additional observations from a re-analysis of the deposited data

How the results depend on the processing

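No paired analysis was possible because each list pools its replicates, and for the same reason no replicate could be left out. Of 58 alternatives, 41 kept the direction and the side of the threshold, or a count within 1.5 times. The midpoint odds ratios passed with other width thresholds, with 1 region per gene and with a reciprocal overlap of 50% (2.35 for WT and 3.34 for 5xA). The values for any overlap, 26.4 and 8.37, rise with region width by construction and support nothing. For regions within 5 kb of the downstream end, the 5xA odds ratio fell to 1.21 with a 2 kb window, 1.74 at 300 bases and 1.66 with 1 region per gene, none of which passed, and the WT one passed at 2.97 with single-gene regions. For protein-coding genes, the odds ratio passed at a threshold of 200 bases (WT 2.23, 5xA 1.73), with 1 region per gene (3.42 and 1.8, chosen after seeing the data) and, for WT, with the gene on the strand of the region (2.58, also added). The setting with 1 region per gene kept every region without a gene, which can itself raise the odds ratio. Neither list passed with contigs left out (WT 2.17, 5xA 1.29) or at 300 bases (2.39 and 1.27). The same held with small RNA genes ranked after protein-coding ones (2.14 and 1.72). Counts moved as follows. At 200 bases there were 186 WT and 403 5xA wide regions, and at 300 bases 147 5xA regions in 109 genes. With spanned regions wholly inside, 1 WT and 22 5xA regions spanned several, and with the other list joined within 50 bases, 1 and 10 did. The cause of the changed tests was not tested. Without read counts, depth limits every width here: a wide region cannot be told from several sites with reads between them.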
